A study of Mus musculus with 4 samples.

Results

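The genes described here are the nuclear effectors, targets and regulators of Notch signaling on a mouse stem cell membrane array: Rbpj, Maml1, Hes1, Hes5, Numb, Dtx1 and Dtx2. They were chosen by symbol, and all 7 were found among the 268 genes of the array, each as 1 spot. RNA came from muscle-derived stem cells (MDSCs) of 4 male mouse types, cultured in medium with 20% serum until nearly confluent, and was pooled from 3 flasks for each array. All 4 types carry the label of a C57BL/6J background and hind limb muscle as the source. WT mice were wild type. Mst KO mice lacked myostatin (Mst-/-), the inhibitor of muscle mass. The mdx mice carried the 10ScSn-Dmdmdx genotype, the dystrophin mutation that models Duchenne dystrophy. Oct4 transgenic mice carried a reporter under the OCT4 promoter, and the methods do not describe this line. WT and Mst KO mice were 12 to 16 weeks old and their MDSCs were selected for Sca1, whereas the donor ages of the other MDSC types were not given in the sources used here. Each MDSC type was measured on 1 array, so no test between types was possible and no value below has a spread between cultures. A number of cells that differ in a gene and a level per cell that differs cannot be told apart in such RNA.

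In Notch signaling, a ligand on one cell binds a receptor on its neighbor, and protease cleavage then frees the intracellular part of the receptor. This part enters the nucleus and joins the DNA-binding protein RBPJ and a Mastermind protein such as MAML1, and the complex turns on targets, of which Hes1 and Hes5 are the best known. Numb and the Deltex proteins act on the receptor from the cytoplasm: Numb is an inhibitor, and Deltex proteins are ubiquitin ligases that regulate its trafficking. In skeletal muscle, Notch signaling is known for keeping satellite cells quiescent and for restraining myogenic differentiation, and Numb is known from dividing satellite cells, where its unequal inheritance goes with a different fate of the daughters.

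RBPJ recognizes a site with the core TGGGAA, so the promoter windows of the members (RefSeq, GRCm38.p6, from 250 bases before to 50 bases after the gene start) were searched for these letters on both strands. Windows were matched for 6 of the 7 members, all but Hes1, with 9 windows in all, and 3 of these 6 held the core: Hes5, Rbpj and Dtx2. These are shown because Hes5 is the classical target of RBPJ and the others are the remaining members with the same letters. The core is in capitals, as TGGGAA or as its reverse complement TTCCCA. The Hes5 window is chr4:154960673-154960972 on the plus strand, the Rbpj window is chr5:53590096-53590395 on the plus strand and the Dtx2 window is chr5:135994550-135994849 on the plus strand.
Hes5: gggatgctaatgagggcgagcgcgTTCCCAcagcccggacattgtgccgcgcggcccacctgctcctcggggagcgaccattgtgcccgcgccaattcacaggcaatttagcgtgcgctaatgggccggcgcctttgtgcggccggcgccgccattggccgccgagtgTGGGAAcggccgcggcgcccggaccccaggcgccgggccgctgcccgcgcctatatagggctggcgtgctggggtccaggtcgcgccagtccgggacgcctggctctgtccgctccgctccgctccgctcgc
Rbpj: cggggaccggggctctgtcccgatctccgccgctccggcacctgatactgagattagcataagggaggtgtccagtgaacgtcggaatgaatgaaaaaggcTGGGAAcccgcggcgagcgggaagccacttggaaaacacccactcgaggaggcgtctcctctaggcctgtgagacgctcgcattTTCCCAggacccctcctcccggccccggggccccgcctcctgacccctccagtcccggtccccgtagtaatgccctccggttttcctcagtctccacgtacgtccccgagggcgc
Dtx2: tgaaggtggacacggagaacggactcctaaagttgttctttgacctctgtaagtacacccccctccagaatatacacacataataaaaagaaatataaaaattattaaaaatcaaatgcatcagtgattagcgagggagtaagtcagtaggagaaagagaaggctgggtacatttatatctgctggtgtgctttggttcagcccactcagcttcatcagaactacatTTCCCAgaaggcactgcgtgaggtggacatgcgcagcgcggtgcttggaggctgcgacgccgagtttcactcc

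The Hes5 window held 2 cores, which began 226 and 82 bases before the start, in opposite orientation. The first Rbpj window also held 2, at 149 and 65 bases before the start, and the one nearer the start was also in the second, overlapping window of Rbpj. Dtx2 held 1, at 23 bases before its start. The core was present in 25.6% of all 32851 windows of this length and in 4 of the 9 windows of the members. No CACGTG was found in any of the 9 windows (7.15% of all windows). CANNTG, which includes CACGTG, was found in those of Hes5 and Dtx2, in window 1 of Rbpj and in windows 2 and 3 of Numb (72.3% of all windows). CACNAG, the N box bound by HES proteins, was found in those of Dtx1 and Dtx2 and in window 3 of Numb (42.5% of all windows). A match describes letters, not occupancy, which was not measured here.

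About the same share of the 268 genes was called present on each array, from 126 in mdx to 136 in WT. The raw intensities ran from 178 to 61071, and no member spot was marked for bleeding. The housekeeping genes did not stay level together: B2m was at 33.0 in WT, 22.5 in Mst KO, 36.1 in mdx and 72.2 in Oct4 transgenic MDSCs, and Gapdh at 113, 97.7, 93.2 and 139. Of the MDSC markers, Cd44 and Pou5f1 were present on all 4 arrays, and Ly6a (Sca1) and Cd34 were not analysed here. Of the other cell types, Ptprc, Kdr and Cd4 of hematopoietic and endothelial cells were absent on all 4 arrays, whereas Cd8a was present on all 4. Of the 4 neural markers, Sox2 was absent on all 4 arrays, Ncam1 was present on all 4, Nes was present in WT at 0.699 and Tubb3 in Oct4 transgenic MDSCs at 1.51. The 5 myogenic markers were present on every array, with a summed level of 76.7 in WT and of 16.5 to 20.0 in the other MDSC types. Actc1, Myod1 and Cdh15 carried this difference, whereas the log2 ratio of Mst KO over WT was -0.01 for Myf5 and -0.28 for Des. The summed level of the 3 mesenchymal markers was 42.5 in WT, 140 in Mst KO, 211 in mdx and 62.0 in Oct4 transgenic MDSCs.

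The values are normalized intensities as deposited: the spot minus the lowest spot of its array, divided by 1 factor for that array. A spot was called present or absent by the authors. Levels were not compared between genes, since each probe binds its target with its own strength, and a summed level of markers weighs the brighter probes more. As a yardstick of technical spread, Gapdh, Ppia and B2m had 3 spots each on every array, and the spots of one gene on one array differed by at most 0.17 on the log2 scale. This yardstick comes from bright spots within an array and says nothing of the spread between arrays or cultures.

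The 7 members differed little between the MDSC types, and in none of the 6 pairs of arrays did any of them differ by 2-fold or more on the deposited scale. Hes5 was highest in WT and lower in each of the other 3 MDSC types. Hes1 was lowest in mdx and, on the deposited scale, highest in Oct4 transgenic MDSCs, where scaling to 5 housekeeping genes put it below WT (log2 ratio -0.19) and Mst KO (-0.45). Numb was highest in Mst KO MDSCs and was called absent in mdx and Oct4 transgenic MDSCs, while Rbpj, Maml1, Dtx1 and Dtx2 spanned at most 1.32-fold over all 4 arrays. With scaling to 5 housekeeping genes, the log2 ratio of Oct4 transgenic over Mst KO was -1.17 for Rbpj, -1.02 for Dtx1 and -1.72 for Numb. In this setting 3 members were past 2-fold in that pair, where the median of all genes was itself at -0.85. The share of all genes past 2-fold was not counted in this setting. Except for Numb, the members were called present on all 4 arrays, as were 112 of the 268 genes.

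**Figure D1:**
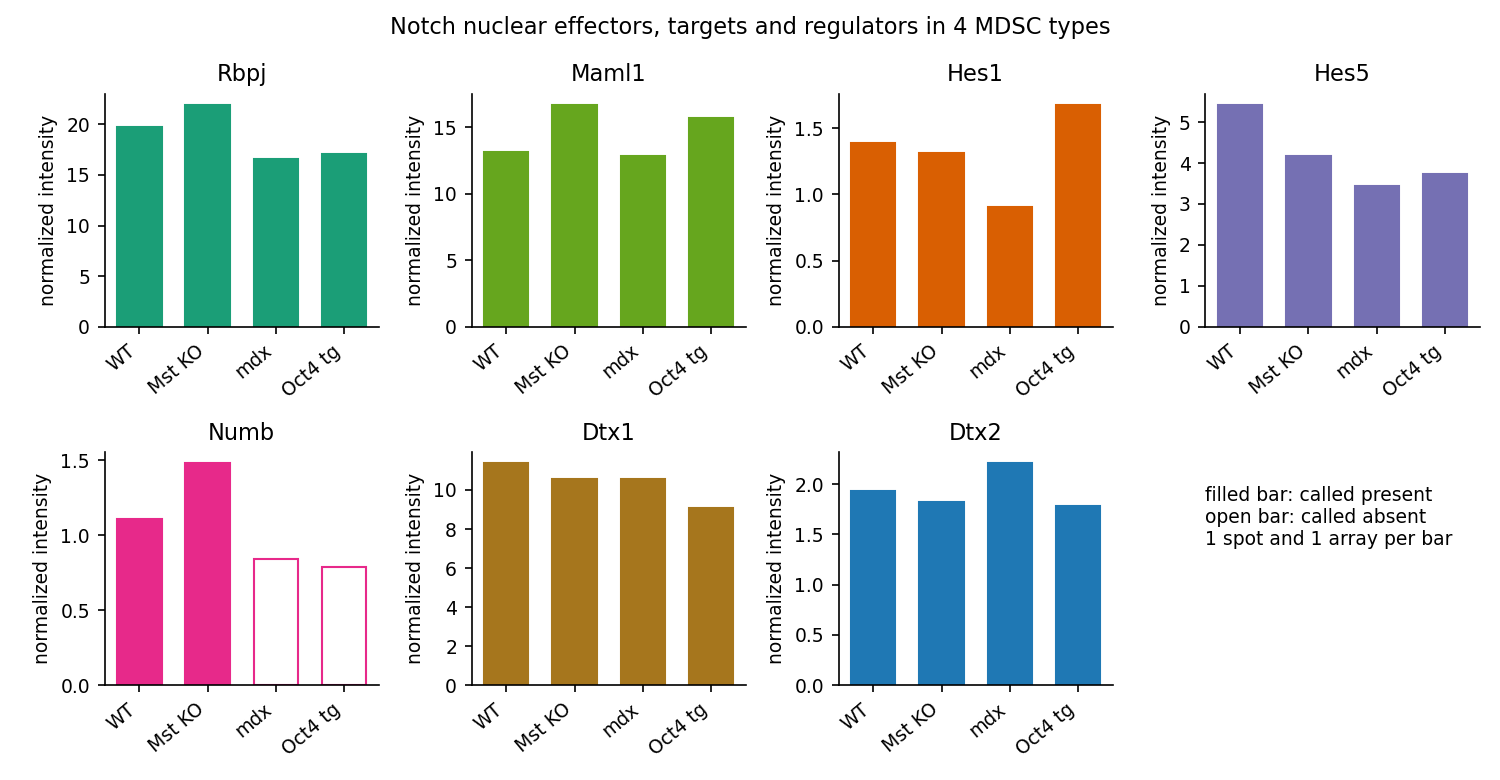
Normalized intensity (y axis, from 0, arbitrary units) of each member on the 4 arrays (x axis), 1 bar per array, 1 spot and no replicates, with filled bars for present and open bars for absent calls. Hes5 is highest in WT at 5.43, Hes1 is lowest in mdx at 0.902, and the bars of Numb in mdx and Oct4 transgenic MDSCs are open.

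Rbpj (NM_009035) encodes the DNA-binding protein on which all canonical Notch signals converge. Its normalized intensity was 19.7 in WT, 21.9 in Mst KO, 16.6 in mdx and 17.0 in Oct4 transgenic MDSCs. On the deposited scale, the arrays formed an upper pair, Mst KO and WT, and a lower pair, Oct4 transgenic and mdx. The steps within the pairs (0.16 and 0.04 on the log2 scale) were no larger than the spread between spots within an array. The step between the pairs was 0.21. These pairs depend on the scaling, since the log2 ratio of mdx over WT was -0.25 on the deposited scale and 0.02 with scaling to Gapdh. Its spots were among the clearest of the members, at 5.67 to 6.95 times their local background.

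Maml1 (NM_175334), the coactivator that locks the cleaved receptor onto RBPJ, was at 13.1 in WT, 16.7 in Mst KO, 12.8 in mdx and 15.7 in Oct4 transgenic MDSCs. On the deposited scale the arrays again fell into pairs, but other ones: Mst KO with Oct4 transgenic above, and WT with mdx below. The step was 0.26 on the log2 scale between these pairs and 0.09 and 0.04 within them. Rbpj and Maml1, partners in the same complex, were both highest in Mst KO. In the Oct4 transgenic array the log2 ratio to WT was -0.21 for Rbpj and 0.26 for Maml1, and the ratio of Maml1 turned to -0.21 with scaling to 5 housekeeping genes. Which array was lowest also depended on the scaling, since the log2 ratio of Oct4 transgenic over mdx was 0.04 for Rbpj and 0.29 for Maml1 on the deposited scale and -0.54 and -0.29 with scaling to Gapdh.

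Hes1 (NM_008235), a basic helix-loop-helix repressor and the main Notch target in many cell types, was a dim spot. It was at 1.39 in WT, 1.31 in Mst KO, 0.902 in mdx and 1.68 in Oct4 transgenic MDSCs. The log2 ratio of Mst KO over WT was -0.08, or -0.26 with local background subtracted, and mdx stood 0.54 below Mst KO on the log2 scale. The spread between spots was taken from bright spots, so these steps of a dim spot cannot be set against it. The mdx value was just above 0.898, the lowest value called present on that array, and the raw mdx spot was 457 against a local background of 257.

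Hes5 (NM_010419), the related repressor whose promoter is printed above, was at 5.43 in WT, 4.17 in Mst KO, 3.44 in mdx and 3.73 in Oct4 transgenic MDSCs. WT was the highest array by a step of 0.38 on the log2 scale. With scaling to 5 housekeeping genes, its log2 ratio of Mst KO over WT was -0.04. The steps among the other 3 arrays were 0.16 and 0.12. The spread between spots came from brighter spots, so these steps cannot be set against it. The summed level of the myogenic markers was also highest in WT, as given above, with Myod1, the master regulator of myogenesis, at 17.5 in WT and 1.68 to 2.68 in the others. The part of such cells in the Hes5 values was not tested.

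Numb (NM_010949), which inhibits the receptor, had values of 1.11 for WT MDSCs and 1.48 for Mst KO MDSCs. In mdx and Oct4 transgenic MDSCs, where it was called absent, the values were 0.845 and 0.788. The Mst KO value stood 0.42 above WT on the log2 scale, or 0.18 with local background subtracted. The local background of its spot was 328 in Mst KO and 244 in WT. The level of an absent spot is uncertain. It was raised here to the lowest present value of its array (0.898 in mdx and 0.828 in Oct4 transgenic MDSCs). On this basis, Numb was 1.65-fold higher in Mst KO than in mdx and 1.79-fold higher than in Oct4 transgenic MDSCs. WT was 1.23-fold and 1.34-fold higher than the same types. These folds are not lower bounds, since absent genes reached 1.37 in mdx and 1.82 in Oct4 transgenic MDSCs. Between mdx and Oct4 transgenic MDSCs no ratio was taken.

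Dtx1 (NM_008052), a Deltex ubiquitin ligase, was at 11.4 in WT, 10.5 in Mst KO, 10.6 in mdx and 9.09 in Oct4 transgenic MDSCs. On the deposited scale, Mst KO and mdx were at nearly the same level and WT was 0.10 higher on the log2 scale. The Oct4 transgenic array was the lowest by a step of 0.21. With scaling to 5 housekeeping genes, the log2 ratio of Mst KO over WT turned from -0.11 to 0.23. Dtx2 (NM_023742), its close relative, was at 1.94 in WT, 1.82 in Mst KO, 2.21 in mdx and 1.79 in Oct4 transgenic MDSCs. Here mdx was highest, 0.19 above WT on the log2 scale, and the 3 other arrays followed within 0.09 and 0.03 of each other. The local background around the mdx spot of Dtx2 was also the highest of the 4 arrays, at 487 against 320 to 362, and with that background subtracted the log2 ratio of mdx over WT was -0.28 in place of 0.19.

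**Figure D2:**
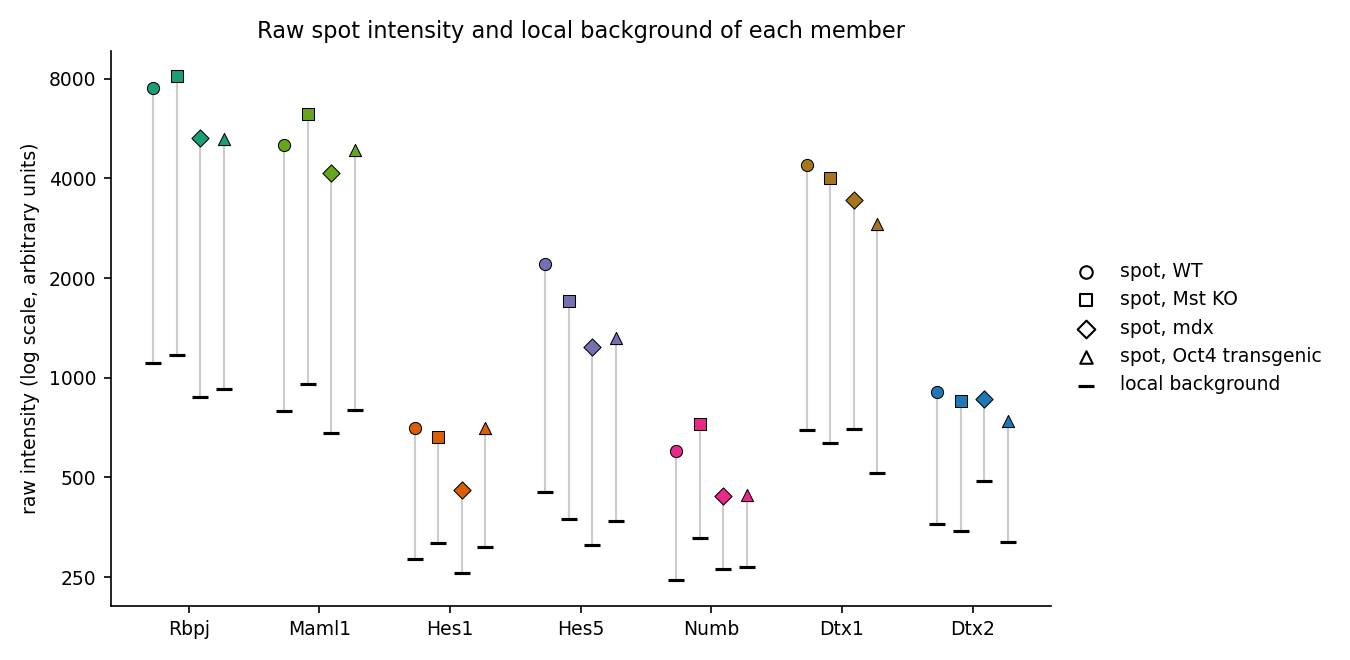
Raw intensity (y axis, log scale, arbitrary units) of the spot (symbols, 1 per array) and of its local background (dashes) for each member (x axis). Hes1, Numb and Dtx2 lie close to their background, with raw spots at 1.65 to 2.51 times it, whereas Rbpj and Maml1 lie at 5.67 to 6.95 times it.

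Mst KO was compared with WT to see what the loss of myostatin goes with in these genes. No member reached 2-fold, against 16.7% of the 144 genes present on at least 1 of these arrays, and none reached 1.5-fold, against 34.7%. The log2 ratio was 0.42 for Numb, 0.35 for Maml1 and 0.16 for Rbpj. It was -0.38 for Hes5, -0.11 for Dtx1, -0.09 for Dtx2 and -0.08 for Hes1. The median absolute log2 ratio of the members was 0.16, and that of all genes was 0.38.

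In mdx over WT, no member reached 2-fold, against 21.7% of 143 genes. At 1.5-fold, Hes5 and Hes1 were lower, 2 of the 7 members against 35.0% of all genes, with log2 ratios of -0.66 and -0.62. Rbpj was at -0.25, Dtx1 at -0.10, Maml1 at -0.04 and Dtx2 at 0.19.

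In Oct4 transgenic MDSCs over WT, no member reached 2-fold, against 21.5% of 144 genes, and none reached 1.5-fold, against 33.3%. The log2 ratio was -0.54 for Hes5 and 0.27 for Hes1 on the deposited scale. With scaling to 5 housekeeping genes both were below 0, at -1.01 and -0.19. Dtx1 was at -0.32, Rbpj at -0.21, Dtx2 at -0.12 and Maml1 at 0.26.

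The 3 other MDSC types were also set against each other. No member reached 2-fold in mdx over Mst KO (6.43% of 140 genes did), in Oct4 transgenic over Mst KO (17.6% of 142) or in Oct4 transgenic over mdx (19.0% of 137). At 1.5-fold, Numb was lower in mdx than in Mst KO, 1 of 7 members against 22.9% of all genes, and lower in Oct4 transgenic than in Mst KO, 1 of 7 against 42.3%. Hes1 was higher in Oct4 transgenic than in mdx by 1.86-fold, 1 of 6 members against 35.8%. The share of members past 1.5-fold was below that of all genes in each of the 6 pairs. With so few members, 1 gene moves this share by much, and since pairs share arrays, these are not separate observations. In mdx over Mst KO the median absolute log2 ratio was larger for the members, at 0.38, than for all genes, at 0.32. In every other pair it was smaller for the members.

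**Figure D3:**
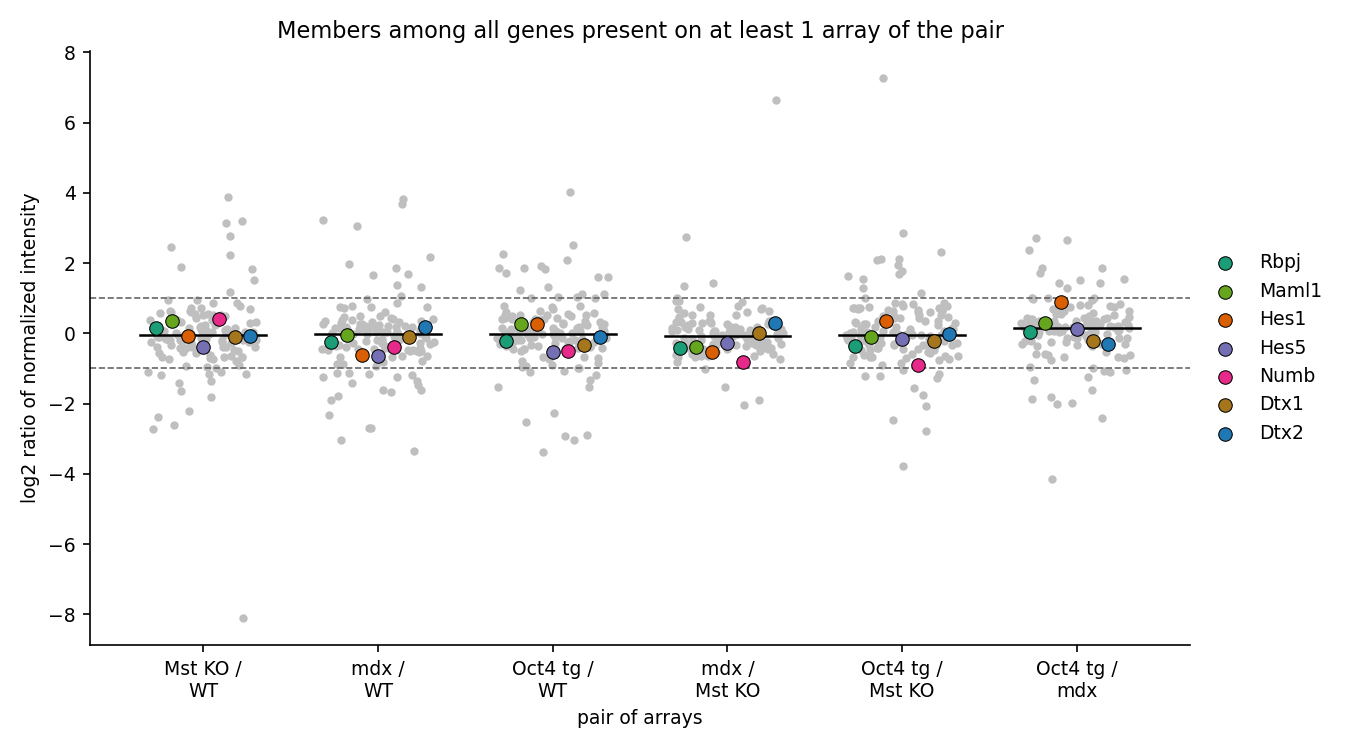
Log2 ratio of normalized intensity (y axis) for each pair of arrays (x axis), with the members as colored points, other genes with a call of present on 1 or both arrays as grey points, the median of all as a black line and 2-fold as dashed lines. All members lie between the dashed lines in every pair, and Numb comes nearest to the lower one, at -0.91 in Oct4 transgenic over Mst KO, where its absent value is drawn as measured.

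Over all 4 arrays, most members spanned less than the median gene, and 2 of the 7 spanned more. Of 149 genes present on at least 1 array, the median span from the lowest to the highest array was 0.75 on the log2 scale, and the median of the 7 members was 0.40. Dtx2 spanned 0.31, Dtx1 0.32, Maml1 0.38, Rbpj 0.40 and Hes5 0.66, all below that median, and 8.72%, 9.40%, 15.4%, 17.4% and 38.9% of genes spanned less than these. Hes1 and Numb, the members with the dimmest spots, spanned 0.90 and 0.91, and 59.7% and 61.1% of genes spanned less than these. The span of Numb uses a spot called absent and is 1.79-fold with that spot raised to the lowest present value of its array. A span within 2-fold was common, as 64.4% of the 149 genes had one, so that the 7 of 7 members within 2-fold do not set them apart.

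A factor for an array multiplies every gene on it, so the difference between the log2 ratios of a pair of members does not depend on how the arrays were scaled. The log2 ratio of Hes5 minus that of Maml1 was -0.73 in Mst KO over WT, -0.62 in mdx over WT and -0.80 in Oct4 transgenic over WT, all of which use the same WT array. Quantile normalization, no background correction and local background gave differences of -0.49, -0.68 and -0.71 for Mst KO, of -0.50, -0.54 and -0.61 for mdx, and of -0.84, -0.69 and -0.82 for Oct4 transgenic MDSCs. The difference of Hes5 minus Hes1 was -0.82 in Oct4 transgenic over WT. In mdx over WT it was -0.04, and it changed sign to 0.15 with quantile normalization and to 0.16 with local background.

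**Figure D4:**
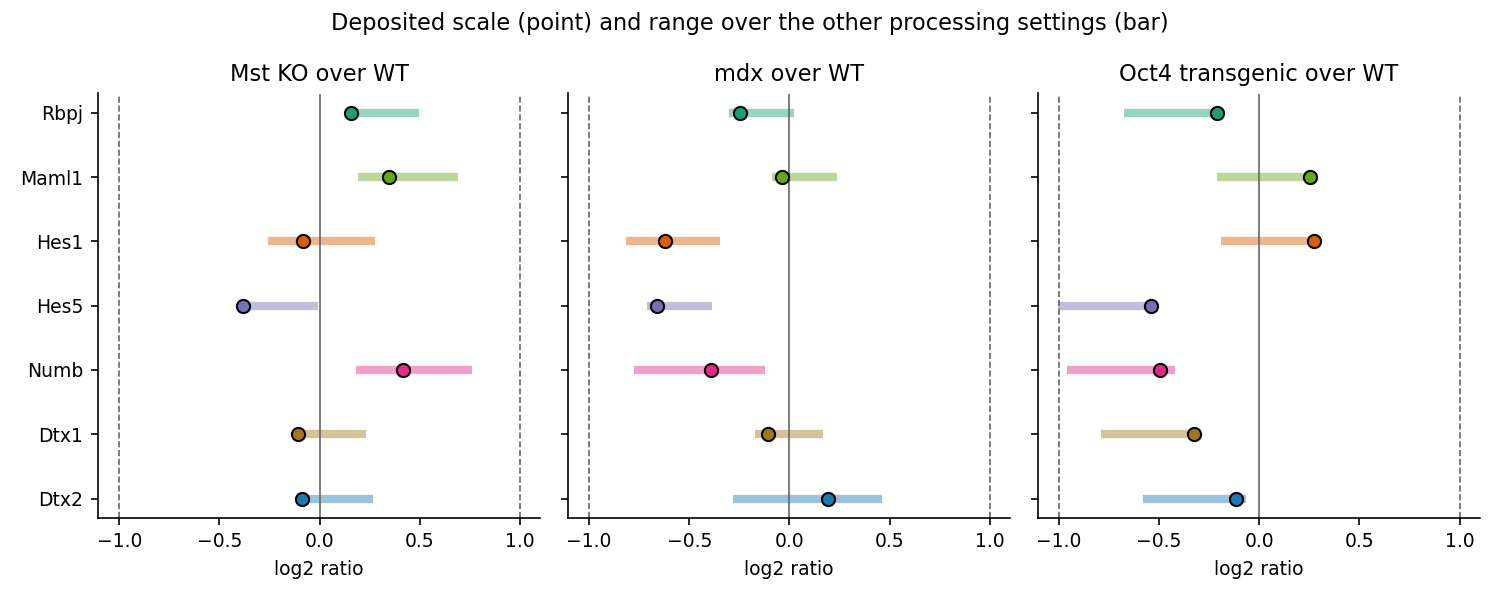
Log2 ratio over WT (x axis) of each member (y axis) in the 3 other MDSC types, with the deposited scale as a point and the range over the other processing settings as a bar, and dashed lines mark 2-fold. Hes5 lies below 0 in all 3 comparisons under every setting. Its values run from -0.01 in Mst KO over WT to -1.01 in Oct4 transgenic over WT. The bars of Dtx1, Dtx2 and Hes1 cross 0 in Mst KO over WT.

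By the smallest root mean square difference of centred log2 values over the 4 arrays, the genes with the pattern most like each member were named among 148 others. For Hes5 these were Pard6b at 0.03, Gjb2 at 0.07 and Des, the muscle intermediate filament, at 0.08. For Hes1, Rhod was nearest at 0.06, and Gapdh was among the 3 at 0.17. For Rbpj they were Rhoa at 0.04, Gjc1 at 0.06 and Tert at 0.08, and for Maml1 they were Sox3 at 0.05, Akp5 at 0.05 and Aph1b, a subunit of gamma-secretase, at 0.09. For Numb they were Cd8a at 0.15, Tert at 0.18 and Rbpj at 0.20, from values that include 2 absent spots each for Numb and Tert. For Dtx1 they were Fgf18, Fgf20 and Psenen, another gamma-secretase subunit, at 0.06 each, and for Dtx2 they were Rac1 at 0.04, Psenen at 0.06 and Gja10 at 0.10. The median difference from a member was 0.32 to 0.50, and 4 arrays leave many genes with near patterns by their number alone.

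Of 30 other genes of the pathway, 19 were on the array, among them Kat2a under its older symbol Gcn5l2, and 10 were present on at least 1 array. Compared with WT, 1 of these 10 was lower by 2-fold or more in Mst KO, 2 in mdx and 3 in Oct4 transgenic MDSCs, and none was higher. Over the whole array, 16.7%, 21.7% and 21.5% of genes passed 2-fold either way in the same comparisons. Those lower were 14 of 144, 19 of 143 and 12 of 144, and those higher were 10, 12 and 19. The other Notch genes are only 10, so 1 gene moves their share by much. Their median log2 ratio was -0.07, -0.05 and 0.12 in these comparisons, and that of all genes was -0.04, -0.03 and -0.01. The median of the 7 members was -0.08, -0.25 and -0.21.

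The other Notch genes past 2-fold were the receptors Notch1 and Notch3 and the deacetylase Hdac1, which serves in corepressor complexes. Notch1 was at 2.65 in WT, 1.16 in Mst KO, 0.824 in mdx, where it was called absent, and 0.912 in Oct4 transgenic MDSCs. It was 2.29-fold lower in Mst KO, at least 2.95-fold lower in mdx and 2.90-fold lower in Oct4 transgenic MDSCs than in WT. Notch3 was at 2.55 in WT, 1.30 in Mst KO, 0.840 in mdx, also absent, and 1.12 in Oct4 transgenic MDSCs, so that it was at least 2.84-fold lower in mdx and 2.27-fold lower in Oct4 transgenic MDSCs. On the deposited scale, both receptors were highest in WT, as were Hes5, Dtx1 and Hdac1, whereas Hes1 was highest in Oct4 transgenic MDSCs. Hdac1 was at 6.10, 4.63, 3.34 and 0.828, 7.37-fold lower in Oct4 transgenic MDSCs than in WT. This fold rests on 1 spot with the lowest value called present on the Oct4 transgenic array, 0.828. The Notch1 value of that array, 0.912, was also near it. The ligands Jag1 and Dll3, the receptor Notch2, the protease Adam17 and the gamma-secretase gene Ncstn were within 2-fold of WT in all 3 types.

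**Figure D5:**
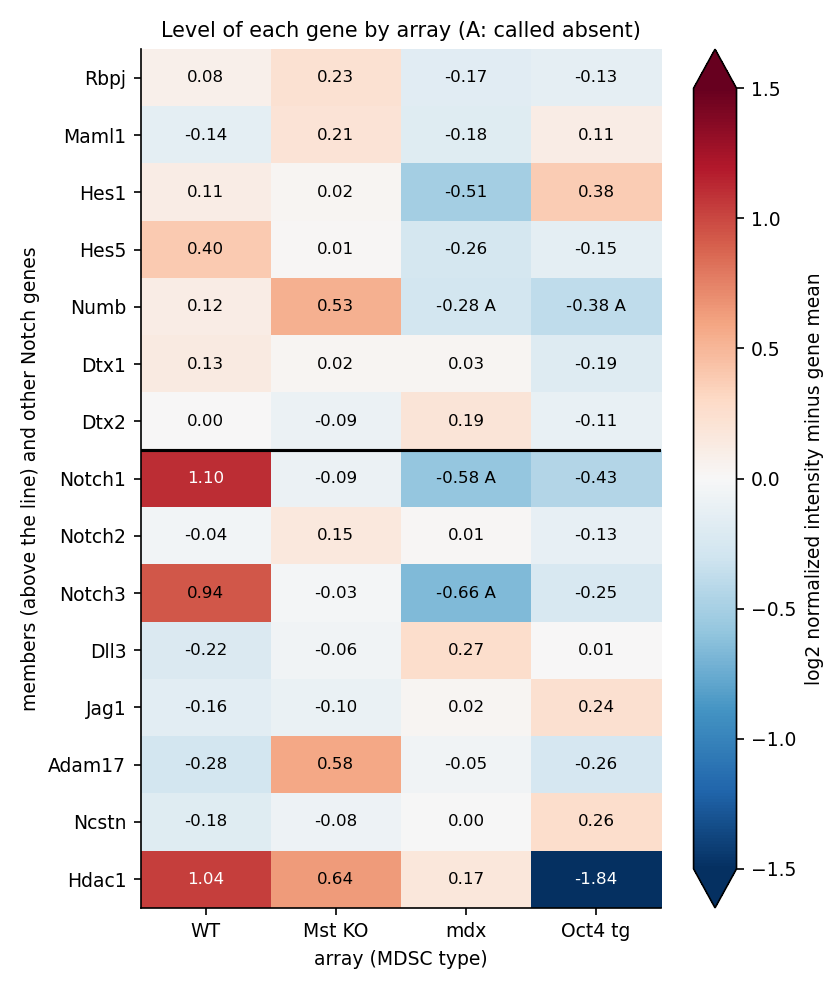
Log2 normalized intensity minus the mean of the gene over the 4 arrays (color and printed value) for the 7 members, above the line, and 8 of the other Notch genes with a call of present, by array (x axis), with A for a call of absent and colors that end at 1.5. On the deposited scale, WT stands above the other arrays at 1.10 for Notch1, 1.04 for Hdac1, 0.94 for Notch3, 0.40 for Hes5 and 0.13 for Dtx1. For Dtx1 this depends on the scaling: its log2 ratio of Mst KO over WT was 0.23 with scaling to 5 housekeeping genes. The lowest value is that of Hdac1 in Oct4 transgenic MDSCs at -1.84, from the lowest intensity called present on that array.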

How the data were processed

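Biotin-labeled RNA of 4 MDSC types was hybridized to membrane oligo arrays (1 array each) and read by chemiluminescence. The authors deposited raw spot and local background intensity and a normalized intensity for 288 spots, 274 of them for 268 genes. Per the file headers, background was the minimum value and the threshold for present was 1.5. No normalization is named there, and the methods name housekeeping genes. The deposited intensity was found to be the background-subtracted spot over the array's mean of its middle 144 background-subtracted spots. The array itself has no read depth, and the single array of each type limits the precision. The 3 columns of ratios by the authors were not used.

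Values of repeated spots were averaged by gene. Log2 ratios, without a pseudocount, were computed where a gene had a call of present on either array of the pair (Python 3.11.15, numpy 2.4.6, pandas 2.3.3). A gene counted as past the threshold at 2-fold, with 1.5-fold and 3-fold as alternatives among 12 in all. With 1 array a group there was no test. The counting was tested on simulated data. Members, lists and alternatives were chosen with earlier results of these data known. All 7 members, the 3 genes nearest in pattern to each, other Notch genes at 2-fold or more against WT, markers and housekeeping genes were named, except for items not reported here. RefSeq accessions of 257 genes were matched to GRCm38.p6, and protein sequences were not used here.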

Additional observations from a re-analysis of the deposited data

How the results depend on the processing

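With 1 array for each MDSC type, leaving out a replicate was not possible. No paired analysis was possible because every group holds 1 sample. Of 41 member ratios, 24 kept their sign under each alternative run for them, among them Hes5 over WT in all 3 types, though it reached -0.01 in Mst KO, and 17 changed sign under at least 1. None of these was past 2-fold on the deposited scale. The cause of the changes below was not tested beyond what each alternative does by construction.

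The main choice is the factor of each array. Scaling to 5 housekeeping genes moved the median of all genes to 0.30 in Mst KO over WT, -0.47 in Oct4 transgenic over WT, -0.48 in mdx over Mst KO and -0.85 in Oct4 transgenic over Mst KO. It then put 1 member past 2-fold in Oct4 transgenic over WT (Hes5), 1 in mdx over Mst KO (Numb) and 3 in Oct4 transgenic over Mst KO (Rbpj, Numb and Dtx1). In that last pair the number was 2 with scaling to 5 housekeeping genes and no background correction together (Rbpj and Numb), 1 with the median of genes present on all 4 arrays and 1 with Gapdh alone (Numb in both). With local background, 1 member, Hes1, passed 2-fold in Oct4 transgenic over mdx. The share of all genes past 2-fold was not counted in these settings. At 1.5-fold the numbers were 2 in mdx over WT and 1 each in mdx over Mst KO, Oct4 transgenic over Mst KO and Oct4 transgenic over mdx. Every other number of members past the threshold stayed at 0, also at 3-fold.

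The median log2 ratio of the other Notch genes, for Mst KO, mdx and Oct4 transgenic MDSCs over WT, was 0.0599, 0.081 and 0.0576 with the median of genes present on all 4 arrays, 0.13, 0.23 and -0.19 with Gapdh alone, and 0.27, -0.10 and -0.34 with 5 housekeeping genes. Quantile normalization gave -0.18 for Mst KO and 0.0641 for mdx, no background correction together with scaling to 5 housekeeping genes 0.26 for Mst KO and -0.27 for Oct4 transgenic MDSCs, and local background -0.17 for mdx and 0.0361 for Oct4 transgenic MDSCs. With genes absent on both arrays included it was 0.0218 for Mst KO and -0.0831 for Oct4 transgenic MDSCs, and with genes present on both only 0.12 for mdx. The sign of this median therefore depends on the setting. Signal over background limits Hes1, Numb and Dtx2 most, whose raw spots were at most 2.51 times their local background.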
